A study of Mus musculus with 2 samples.

Results

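The miR-17-92 and miR-106b-25 clusters are 2 groups of microRNA genes that lie on separate chromosomes and carry related sequences. They were described here in hindbrain of mouse embryos at embryonic day 15.5. The members were the 9 genes of these clusters, found by symbol among the 1973 microRNA genes of the count tables, and all 9 were found. The Mir17hg cluster has 6 members (Mir17, Mir18, Mir19a, Mir20a, Mir19b-1 and Mir92-1), and the Mcm7 cluster has 3 (Mir106b, Mir93 and Mir25). Members were picked by symbol and no measured value entered that rule, but earlier results of these data were known when it was set. The series holds 1 group of 2 libraries made from healthy B6NCrl embryos of mixed sex, with no treatment, mutant or other age. The hindbrains of 78 embryos went into replicate 1 and of 62 embryos into replicate 2, so each library averages over all cell types of the hindbrain. Fewer cells of a type and less RNA per cell cannot be told apart in such tissue.

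MicroRNAs are cut from hairpins in longer transcripts. One arm of the hairpin is loaded into an Argonaute protein, where its seed, bases 2 to 8, pairs with messenger RNAs and lowers their output. Both clusters are transcribed as single precursors that give several hairpins. Mir17hg is a noncoding host transcript driven by MYC and E2F factors, and Mcm7 encodes a subunit of the helicase that opens DNA for replication. The miR-17 seed family represses inhibitors of the cell cycle and the cell death factor Bim. In mouse brain both clusters are known for sustaining the division of neural progenitors.

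All 6 hairpins of the first cluster lie within 836 nt, in exon 2 of the 2 exons of Mir17hg on the plus strand of chromosome 14 (115042879 to 115046727, mm10). The 3 hairpins of the second lie within 498 nt, in intron 13 of the principal Mcm7 transcript, which has 15 exons, on the minus strand of chromosome 5 (138164583 to 138172422). In the short retained-intron transcript Mcm7-202 the hairpins of Mir93 and Mir25 also lie in exon 1.

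The mature sequences that carry the seeds are shown because the results are grouped by seed. They are the RefSeq sequences of build GRCm38.p6, 5′ to 3′, with the seed in capitals, and all 9 members were matched.
miR-17-5p (Mir17): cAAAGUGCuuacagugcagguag
miR-20a-5p (Mir20a): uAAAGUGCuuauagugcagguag
miR-93-5p (Mir93): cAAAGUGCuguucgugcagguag
miR-106b-5p (Mir106b): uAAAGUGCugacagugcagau
miR-18a-5p (Mir18): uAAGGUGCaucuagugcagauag
miR-19a-3p (Mir19a): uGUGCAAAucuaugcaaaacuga
miR-19b-3p (Mir19b-1): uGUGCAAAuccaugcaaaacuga
miR-92a-3p (Mir92-1): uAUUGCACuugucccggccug
miR-25-3p (Mir25): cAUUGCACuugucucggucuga
Mir17, Mir20a, Mir93 and Mir106b share 1 seed, Mir92-1 and Mir25 share another, and so do Mir19a and Mir19b-1. The miR-18 seed differs from the miR-17 seed by 1 base, at A4G, counted from the 5′ end of miR-17-5p. Within the miR-17 seed group the sequences also differ outside the seed. From miR-17-5p, miR-20a-5p differs by C1U and C12U, and miR-106b-5p by C1U, U10G and G20A. miR-93-5p differs from it by U10G, A11U, C12U and A13C.

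For 2 members the mature product cannot be placed at a single gene. miR-19b-3p and miR-92a-3p occur in full in a second hairpin of the paralogous miR-106a-363 cluster on chromosome X. The 4 hairpins are printed with the longest stretch shared by each pair in capitals.
Mir92-1 (chr14:115044427-115044506, plus strand): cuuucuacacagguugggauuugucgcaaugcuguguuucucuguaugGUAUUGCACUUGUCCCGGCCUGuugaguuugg
Mir92-2 (chrX:52741838-52741928, minus strand): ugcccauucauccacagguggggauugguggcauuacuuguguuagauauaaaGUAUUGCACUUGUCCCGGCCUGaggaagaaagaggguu
Mir19b-1 (chr14:115044305-115044391, plus strand): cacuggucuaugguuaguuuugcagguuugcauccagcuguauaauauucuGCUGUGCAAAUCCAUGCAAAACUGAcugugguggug
Mir19b-2 (chrX:52741983-52742066, minus strand): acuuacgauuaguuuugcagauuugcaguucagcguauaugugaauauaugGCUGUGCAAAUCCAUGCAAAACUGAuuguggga
The shared stretch is 22 nt for the Mir92 pair and 25 nt for the Mir19b pair, longer than the mature product in each. The tables give reads with several possible loci as a separate total, which was 35.4% of all reads in replicate 1 and 34.2% in replicate 2. The counts of Mir92-1 and Mir19b-1 therefore hold only reads that the authors could place at 1 gene, and their levels are uncertain. For the other 7 members the longest stretch shared with any other RefSeq microRNA hairpin was between 12 and 17 nt, and no mature sequence of theirs occurred in another hairpin. Copies outside annotated hairpins were not searched.

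The libraries held 8327917 reads in replicate 1 and 10507754 in replicate 2, of which 3937840 and 4839647 lay on the own strand of a microRNA gene. The tables have no header, and the column with the larger total was taken as that strand. Levels are given as CPM, the count per 1000000 of those gene reads. The limit that a count of 0 sets is 3 reads, which is 0.762 CPM in replicate 1 and 0.62 CPM in replicate 2. A read covers a whole mature product, so counts were not divided by hairpin length, and the 5p and 3p arms are counted together. Ligation and amplification differ between sequences, so genes are ordered here by reads, which need not be the order of molecules. Intervals are exact binomial intervals on read counts, so they cover counting error only. The reads carry no molecular identifiers, so amplified copies of 1 molecule cannot be told apart. The hindbrain label was checked against marker genes. The 6 Hox cluster genes held 9.21% and 13.2% of gene reads. Most of these reads were of Mir10a (239007 and 396014) and Mir10b (118827 and 235094). Mir615 had 4697 and 8856 reads, Mir196b 96 and 281, Mir196a-2 9 and 18, and Mir196a-1 1 and 1. Brain-enriched Mir137 had 31147 and 42643 reads, Mir128-1 had 8448 and 12195, and Mir128-2 had 4669 and 6893. Others on the brain list were lower: Mir9-3 (1991 and 3125), Mir218-2 (538 and 581), Mir218-1 (93 and 124) and Mir9-2 (6 and 17). Mir9-1 was not among the measured genes. The neuronal Mir124a-1, Mir124a-2 and Mir124a-3 had between 6 and 21 reads each. But these gene copies give the same mature product, and reads that have several loci may be missing from each of them. The products of the Mir9, Mir218, Mir128 and Mir196a copies were not searched for in other hairpins, so reads may be missing there too. A low count on these lists therefore does not show a low level of the microRNA.

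Together the 2 clusters took 4.23% (replicate 1) and 3.94% (replicate 2) of all gene reads, a mean of 4.08% ± 0.203 (SD, n = 2). The Mir17hg cluster had 110765 and 126221 reads, or 2.71% ± 0.145 of gene reads. The Mcm7 cluster had 55685 and 64431 reads, or 1.37% ± 0.0585. The ratio of the Mir17hg cluster to the Mcm7 cluster was 1.99 in replicate 1 (95% exact interval 1.97 to 2.01) and 1.96 in replicate 2 (1.94 to 1.98). The intervals of the 2 pools overlap. Without Mir92-1 and Mir19b-1, whose 3p products are shared, the mean ratio was 1.90. Leaving these genes out does not recover reads that could not be placed, so each ratio is one of placed reads.

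**Figure D1:**
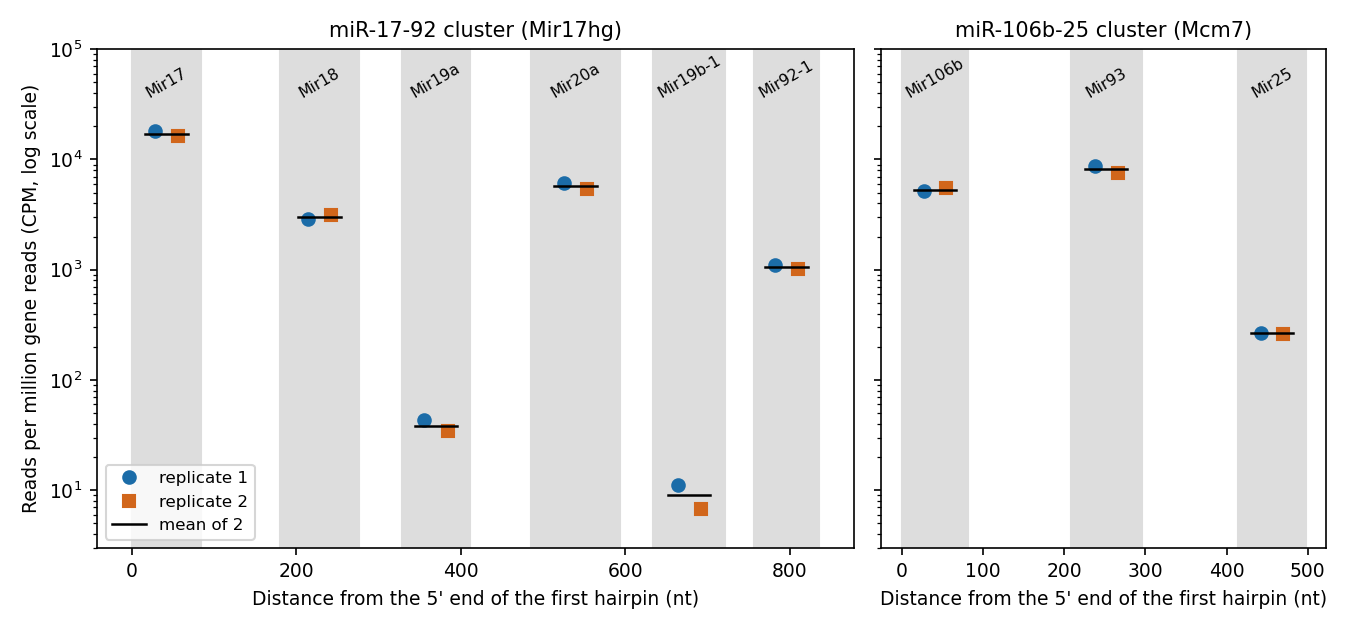
Level of each member (CPM, log scale) against the distance of its hairpin from the 5′ end of the first hairpin of its cluster, in nt. Grey bands are hairpins, circles are replicate 1, squares are replicate 2 and lines are their means. Mir19a and Mir19b-1 lie below 50 CPM between hairpins that average 1053 CPM or more, and Mir25 lies below 300 CPM next to Mir93.

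Mir17, the first hairpin of its cluster, was the highest member. It had 70805 reads in replicate 1 and 79526 in replicate 2, or 17206 ± 1095 CPM (SD, n = 2), and ranked 14 of the 1973 genes in each library. Mir20a, which has the same seed, had 24105 and 26315 reads, or 5779 ± 484 CPM. Mir18 had 11339 and 15274 reads, or 3018 ± 196 CPM. Mir92-1, the last hairpin, had 4303 and 4907 reads, or 1053 ± 55.7 CPM. These 4 genes were abundant in both pools, and Mir17 alone made up 63.9% of the cluster's placed reads in replicate 1 and 63.0% in replicate 2.

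The miR-19 genes were far lower than the hairpins beside them. Mir19a had 169 reads in replicate 1 and 166 in replicate 2, or 38.6 ± 6.09 CPM. Mir19b-1 had 44 and 33 reads, or 9.00 ± 3.08 CPM. Reads of Mir17 exceeded those of Mir19a 419-fold in replicate 1 (360 to 490) and 479-fold in replicate 2 (411 to 561). miR-19a-3p differs from miR-19b-3p by U11C, and the longest stretch that Mir19a shares with another hairpin is 13 nt. The share of G and C was 34.8% in miR-19a-3p and 39.1% in miR-19b-3p, and it was also 39.1% in miR-20a-5p, a much more abundant member. The part of shared sequence and of base composition in these levels was not tested.

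In the Mcm7 cluster Mir93, the middle hairpin, was highest, with 34295 reads in replicate 1 and 36715 in replicate 2, or 8148 ± 794 CPM. Mir106b, the first hairpin, had 20332 and 26442 reads, or 5313 ± 212 CPM. Both carry the miR-17 seed. Mir25, the last hairpin, which carries the miR-92 seed, had 1058 and 1274 reads, or 266 ± 3.84 CPM. Reads of Mir93 exceeded those of Mir25 32.4-fold in replicate 1 (30.5 to 34.5) and 28.8-fold in replicate 2 (27.3 to 30.5). Mir25 made up 1.90% and 1.98% of the reads of its cluster.

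The 9 levels ran in the order Mir17, Mir93, Mir20a, Mir106b, Mir18, Mir92-1, Mir25, Mir19a and Mir19b-1, and the mean of the first was 1913 times that of the last. The only neighbours in that order whose values overlapped between libraries were Mir20a and Mir106b. Their ratio was 1.19 in replicate 1 (1.16 to 1.21) and 0.995 in replicate 2 (0.978 to 1.01), so their order was not settled. The other 7 neighbouring pairs did not overlap between libraries. Reads of the shared products of Mir92-1 and Mir19b-1 may be missing. Their places in the order and the span of 1913 therefore describe placed reads only. The members were measured in the same 2 libraries, so their values are paired by library. With 2 libraries even an unpaired exact permutation test cannot give a two-sided p below 0.33, so no p is given for these orders.

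Grouped by seed, most of the members' placed reads were of genes that carry the miR-17 seed, found in both clusters. Mir17, Mir93, Mir20a and Mir106b held 89.8% of the members' reads in replicate 1 (89.7 to 90.0) and 88.6% in replicate 2 (88.5 to 88.8). Mir18 held 6.81% and 8.01%, Mir92-1 and Mir25 together 3.22% and 3.24%, and Mir19a and Mir19b-1 together 0.128% and 0.104%. Every share here is uncertain, that of the miR-17 seed included. Reads of the shared products of Mir19b-1 and Mir92-1 may be among those with several loci and so missing from the total. Counts hold both arms of a hairpin, so the shares are of genes grouped by the seed of 1 arm. For Mir92-1 and Mir19b-1 the 5p arm occurs in no other RefSeq hairpin, and which arm their placed reads came from is not known.

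The same seeds also occur outside the 2 clusters, so the members were set against RefSeq genes with a mature product of that seed. The search left out 1 chromosome, and the counts of genes with a seed are over the others. The miR-17 seed was found in 7 genes, and the 4 members held 98.9% of the reads of those genes in replicate 1 and 98.8% in replicate 2. The other 3 were Mir106a, with 1016 and 1307 reads, Mir20b, with 673 and 786, and Mir6383, with 0 in both. Mir18 held 99.2% and 99.1% of the reads of the 2 genes with its seed, the other being Mir18b with 86 and 143 reads. For both these seeds nearly all reads that could be placed came from the 2 clusters.

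The miR-92 seed was different. Of the reads of the 7 genes found to carry it, Mir92-1 and Mir25 held 23.8% in replicate 1 and 25.2% in replicate 2. Mir92b, a gene on chromosome 3 (89227116 to 89227198) that represses the transcription factor Eomes in mouse cortical progenitors, had 15535 and 16310 reads, or 3658 ± 407 CPM. The count of Mir92-1 was 0.277 times that of Mir92b in replicate 1 (0.268 to 0.287) and 0.301 times in replicate 2 (0.291 to 0.311). Reads of miR-92a-3p have more than 1 possible locus and may be missing from Mir92-1, so the level of miR-92a relative to Mir92b is not known from these counts. No mature product of Mir25 occurs in another hairpin, and its count was 0.0681 times that of Mir92b in replicate 1 and 0.0781 times in replicate 2. Mir25 exceeded Mir363, with 936 and 1160 reads, 1.13-fold (1.03 to 1.24) and 1.10-fold (1.01 to 1.19), and it exceeded Mir32, with 526 and 638 reads, 2.01-fold and 2.00-fold. Mir92-2 had 183 and 250 reads, and Mir367 had none.

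**Figure D2:**
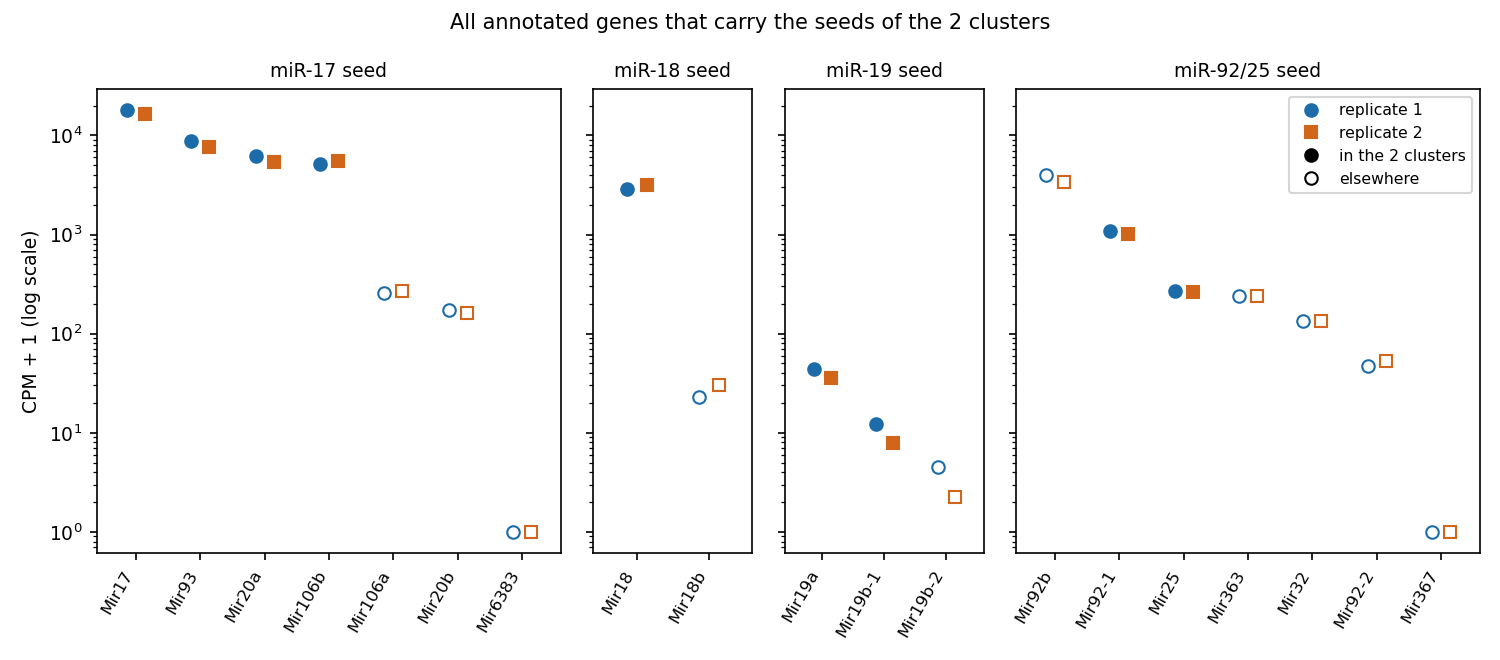
Level of every gene found with each of the 4 seeds (CPM + 1, log scale), in replicate 1 (circles) and replicate 2 (squares). The search for seeds left out 1 chromosome. Filled symbols are genes of the 2 clusters and open symbols are genes elsewhere. Filled symbols lead the miR-17, miR-18 and miR-19 panels, and the open symbols of Mir92b, with a mean of 3658 CPM, lead the miR-92/25 panel.

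The paralogous cluster on chromosome X, with Mir106a, Mir18b, Mir20b, Mir19b-2, Mir92-2 and Mir363, was at a far lower level. The 9 members of both clusters together had 57.2 times the reads of its 6 genes in replicate 1 (55.2 to 59.4) and 52.2 times in replicate 2 (50.5 to 54.0). The Mir17hg cluster alone had 110765 and 126221 reads, against 2908 and 3652 for those 6 genes. Mir17 exceeded Mir106a 69.7-fold in replicate 1 (65.5 to 74.2) and 60.8-fold in replicate 2 (57.6 to 64.3), although miR-17-5p and miR-106a-5p differ by a single base, U10A. Mir20a exceeded Mir20b 35.8-fold (33.2 to 38.7) and 33.5-fold (31.2 to 36.0), and Mir18 exceeded Mir18b 132-fold (107 to 165) and 107-fold (90.6 to 127). A read with an error at a base that tells paralogs apart could be counted at the wrong gene, and the levels of the low paralogs are uncertain for that reason. For the pairs with identical mature products, Mir92-1 exceeded Mir92-2 23.5-fold and 19.6-fold. Mir19b-1 had 44 and 33 reads, against 14 and 6 for Mir19b-2. Reads of the shared product may be missing from both genes of a pair. These last ratios and the sums of the clusters therefore describe only the reads that could be placed.

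The 2 pools were compared to see how far the members vary between biological replicates. With 1 library on each side there is no replicate check, and the exact binomial test sets 1 library against the other with counting error as its only error. After TMM scaling, which sets the bulk of genes level between libraries, 153 of the 426 genes with at least 10 reads in a library, or 35.9%, differed at a Benjamini-Hochberg adjusted p of 0.05. Of the 9 members 6 did: Mir17, Mir20a, Mir93 and Mir92-1 were higher in replicate 1, and Mir18 and Mir106b were lower. Of all genes tested, 20.7% were higher in replicate 1 and 15.3% lower, or 88 and 65 genes. With genes of 1 read admitted the split turned, with 65 higher and 72 lower, while the 9 members kept their directions. Among genes with at least 1000 reads in both libraries 101 of 155 were called, or 65.2%, against 6 of the 7 members that deep. At 10000 reads or more it was 56 of 61 genes, or 91.8%, and 5 of 5 members.

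All 6 differences were small. The log2 ratio of replicate 1 over replicate 2 was 0.22 for Mir93 (95% exact interval 0.19 to 0.24), the largest of the 6, with an exact binomial p of 1.00e-86 after adjustment. It was 0.19 for Mir20a (0.16 to 0.21), 0.15 for Mir17 (0.13 to 0.16) and 0.12 for Mir92-1 (0.07 to 0.18). It was -0.12 for Mir18 (-0.15 to -0.08) and -0.06 for Mir106b (-0.09 to -0.04). Mir25 was at 0.05 (-0.07 to 0.17) and did not pass. Mir19a, at 0.34 (0.02 to 0.66), and Mir19b-1, at 0.73 (0.05 to 1.43), rest on few reads, and neither passed the adjustment, with exact binomial p of 0.0785 and 0.0733 after adjustment. At least 1.5-fold differences were found in 71 of 426 genes, or 16.7%, and in 1 member, Mir19b-1.

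The median size of the log2 ratio was 0.12 over the 7 members with a mean of at least 100 CPM and 0.10 over the 208 genes at that level. edgeR's exact test, with the coefficient of variation between libraries set at 0.1 for every gene, called 6 genes, or 1.41%, and 0 members, with 32 genes and 0 members at an unadjusted p under 0.05. The sums of the marker lists, which hold placed reads only, also differed between the 2 pools, although not every gene of a list went the same way. The 10 measured brain genes of 11 on the list summed to 11916 CPM in replicate 1 and 13559 in replicate 2. The 6 measured blood genes of 7 on the list summed to 681 CPM in replicate 1 and 536 in replicate 2, with each above 0. The 5 mesenchymal genes summed to 6493 and 5845 CPM, endothelial Mir126a had 25702 and 22600, and the Hox genes summed to 92090 and 132296. Mir143 alone had 6174 and 5540 CPM of the mesenchymal sum, and Mir137 7910 and 8811 CPM of the brain sum. Against the sum of their list went Mir218-2 (137 and 120 CPM), Mir124a-3 (2.54 and 1.86), Mir486 (29.5 and 34.5) and Mir145a (79.2 and 80.8). Mir196a-1 did so too, with 1 read in each library. The part of these cells or levels in the members' differences was not tested.

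**Figure D3:**
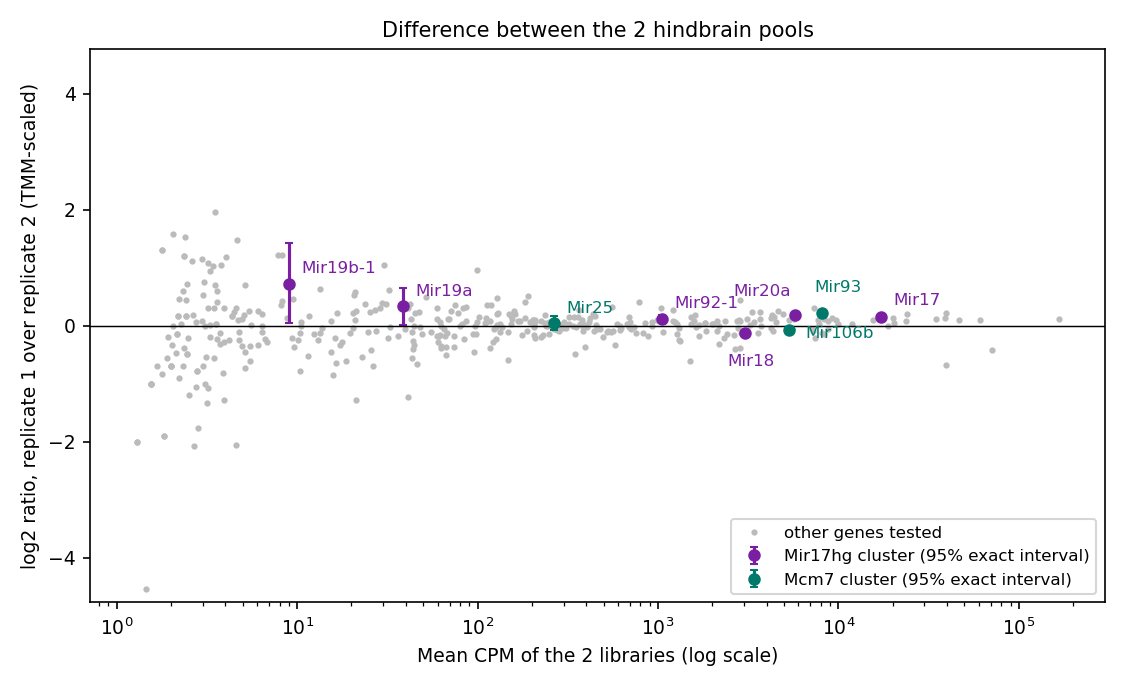
TMM-scaled log2 ratio of replicate 1 over replicate 2 against the mean CPM (log scale) for the 426 genes tested, with 0.5 read added where a library had 0. Bars are 95% exact intervals of the members, for counting error only. The 7 members above 100 CPM lie between -0.12 and 0.22, and Mir19a and Mir19b-1 lie higher with wide intervals.

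Ratios between members of 1 precursor were compared between the pools. Ratios within a library do not depend on how the libraries are scaled. Reads of Mir93 were 1.69 times those of Mir106b in replicate 1 (1.66 to 1.72) and 1.39 times in replicate 2 (1.37 to 1.41). In the Mir17hg cluster, reads of Mir17 were 6.24 times those of Mir18 in replicate 1 (6.12 to 6.37) and 5.21 times in replicate 2 (5.12 to 5.30). Reads of Mir20a were 2.13 (2.08 to 2.17) and 1.72 (1.69 to 1.76) times those of Mir18. These intervals do not overlap between the pools, and they cover counting error only. On the log2 scale the 3 ratios differed by 0.28, 0.26 and 0.30 between the pools. The last 2 both hold Mir18, so they are not separate changes. Over all pairs of the 208 genes that averaged 100 CPM or more, the SD of that difference was 0.25 and its median size 0.15, so the 3 pairs were little more than 1 SD apart. Mir18 over Mir92-1, which holds Mir18 as well, was 2.64 (2.54 to 2.73) and 3.11 (3.01 to 3.22), again without overlap, a log2 difference of -0.24. Mir19a over Mir19b-1 had a log2 difference of -0.39 on few reads, with intervals that overlap. Mir17 over Mir20a was closer, at 2.94 (2.89 to 2.98) and 3.02 (2.98 to 3.06). So was Mir17 over Mir92-1, at 16.5 (16.0 to 17.0) and 16.2 (15.7 to 16.7). With 1 library from each pool, how far such ratios vary between further pools is not known.

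**Figure D4:**
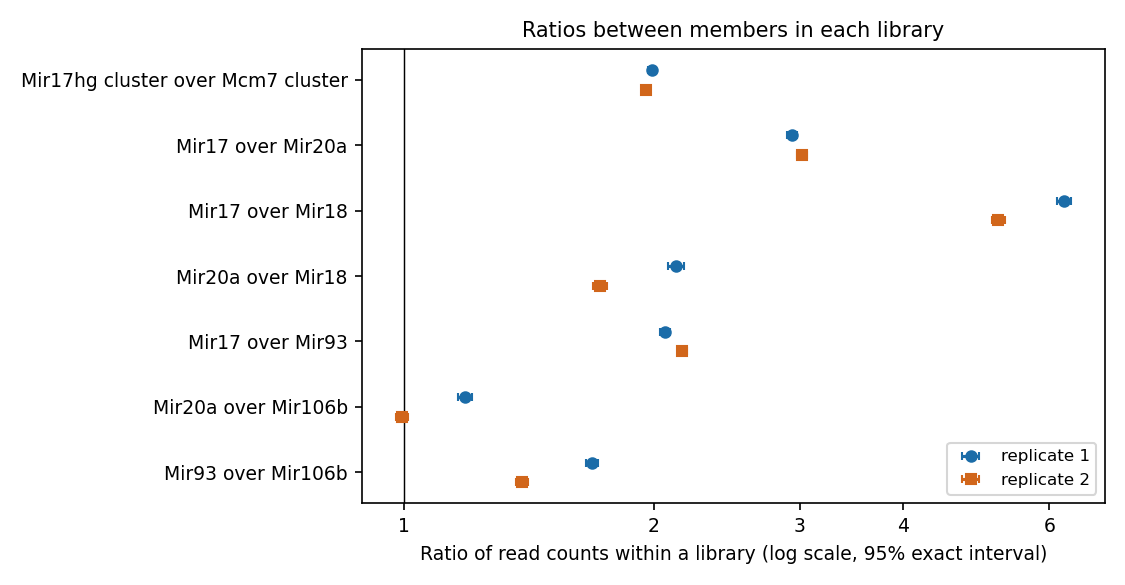
Ratio of the read counts of 2 members, or of the 2 clusters, within replicate 1 (circles) and replicate 2 (squares), on a log scale with 95% exact intervals. The ratio of the clusters is 1.99 and 1.96, while Mir93 over Mir106b is 1.69 and 1.39.

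The genes whose levels were most like the leaders were found by the distance of log2(CPM + 1) over the 2 libraries. The members, the paralogous cluster, Mir92b, Mir32 and Mir367 were left out of that search. With 2 libraries this distance measures likeness of level. Nearest to Mir17 were Mir26b at a distance of 0.20 (63248 and 73567 reads), Mir30e at 0.21 (73623 and 91461) and Mir99b at 0.32 (82363 and 93546). Nearest to Mir93 were Mir382 at 0.09 (34069 and 38986 reads), Mir135b at 0.14 (31101 and 36174) and Mir127 at 0.16 (30865 and 37722). Mir382 and Mir127 lie in the imprinted Dlk1-Dio3 region. No read of any of the 9 members lay on the opposite strand in either library.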

How the data were processed

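MicroRNA sequencing of 2 hindbrain pools was analysed. The authors deposited raw read counts per gene, on mm10 per the labels and with GENCODE M4 per the deposited notes. For the aligner, trimming and counter, the tools are not given in the sources used. The tables have no header, and the single-strand column whose sum was larger was used as the genes' own strand. Rows without a gene did not enter library sizes or tests. They held 35.4% and 34.2% of reads (several loci), 13.7% and 15.8% (unmapped) and 2.56% and 2.96% (outside genes). Symbols came from GENCODE M21 (same build) and sequences from RefSeq. The libraries were scaled by TMM (edgeR 4.0.16, R 4.3.3), and genes with at least 10 reads in a library were compared by an exact two-sided conditional binomial test with Benjamini-Hochberg adjustment over all 426, at a threshold of 0.05. The test was run beforehand on simulated data with known ratios. The simulated counts had counting error only and were not TMM-scaled, so that run does not cover variation between pools. Shares and ratios have exact 95% intervals (scipy 1.17.1). The alternatives were DESeq2 1.42.0 size factors, total counts, other count minimums, both strands, other denominators, assumed coefficients of variation and single replicates. The named genes are the members, all genes of the paralogous cluster or found with the same seeds, and the 3 genes nearest in level to each cluster's highest member. Mir6383, found by its seed, and the markers are named besides. The members and lists were chosen with earlier results of these data known. Whether the pools came from separate litters is not stated.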

Additional observations from a re-analysis of the deposited data

How the results depend on the processing

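The 9 members' log2 ratios kept their direction and their side of the threshold under DESeq2 size factors, total counts, both strands and both other count minimums, in 44 of 44 values; with at least 50 reads in both libraries Mir19b-1 was not tested. At assumed coefficients of variation of 0.1 and 0.2, edgeR's exact test called 6 and 0 of 426 genes and 0 and 0 members, with 32 and 12 genes at an unadjusted p under 0.05, against 153 genes and 6 members by the binomial test. Among genes with at least 1000 and at least 10000 reads in both libraries, limits chosen after seeing the data, 101 and 56 were called. The count of genes at least 1.5-fold apart was 299 with 1 read admitted and 12, with 0 members, at 50 reads in both libraries; fewer or more genes of low count enter there. With 1 read admitted, calls split into 65 higher and 72 lower in replicate 1, against 88 and 65. With all reads as denominator the Mir17hg cluster held 1.27%, the Mcm7 cluster 0.641% and both 1.91%. The ratio of the clusters was 1.90 without Mir92-1 and Mir19b-1, and between 1.96 and 1.99 with either replicate left out. Leaving out those genes does not recover reads with several loci. Mir25 was at 260 CPM with both strands counted. The opposite-strand share of the members was 0 in both libraries and with either replicate left out. No comparison of groups paired by replicate was possible, because the series holds 1 group. Ratios between members were taken within each library. Mir19a and Mir19b-1 are limited by depth, and 2 pools limit every error given.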
